A study of Mus musculus with 9 samples.

Results

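The 10 core genes of the circadian clock, Arntl, Clock, Npas2, Per1, Per2, Per3, Cry1, Cry2, Nr1d1 and Nr1d2, were followed by RNA sequencing in hearts of mice with and without a myocardial infarction. They were taken by gene symbol as the known core of the clock, and all 10 were found among the 24964 genes of the deposited count table. All 10 also had enough reads to be among the 14347 genes tested.

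The hearts came from 9 male C57BL/6JR mice, labelled as 8 weeks old in all groups. That label does not separate age at surgery from age at collection, so age at collection may have differed between the groups. In the MI 28 d and MI 7 d groups a suture was tied around the left anterior descending (LAD) coronary artery, which stops blood flow to part of the left ventricle, and hearts were taken 28 or 7 d later. In the sham group the chest was opened in the same way but the artery was not tied. Each group held 3 libraries labelled as replicates, taken here as 1 library from each of 3 mice. No genetic alteration or drug was part of the design apart from anaesthesia with isoflurane, which all groups received. The labels name the tissue only as heart and do not say whether scar, border or distant muscle was sampled. They give neither the hour of the day at which any heart was taken nor the time between surgery and collection for the sham group.

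The circadian clock is a loop of transcription factors that runs in nearly every cell, including heart muscle cells. BMAL1, the product of Arntl, pairs with CLOCK or its close relative NPAS2 and binds E-box sequences in DNA, where the pair switches on the Per, Cry and Nr1d genes. PER and CRY proteins then bind the pair and inhibit it. The Nr1d genes encode REV-ERB alpha and REV-ERB beta, nuclear receptors that bind ROR response elements (ROREs) and repress Arntl and Npas2. Because of this loop, transcripts of most of these genes go up and down over each day in the mouse heart, with Arntl and the Per and Nr1d genes at opposite phases. A difference in the hour of collection between the groups and an effect of the infarction cannot be told apart in these comparisons.

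Promoter sequences of 4 of the genes are shown because they hold the letters of elements through which the loop is known to act, and because their genes show the fall of Arntl, the rises of a pair of Period genes and the separate course of Cry1 described below. Windows of 250 bases before and 50 bases after each transcription start were taken from RefSeq on GRCm38.p6, which held 13 windows for 9 of the 10 genes. They were searched on both strands for the E-box CACGTG, the E-prime box CACGTT, the RORE core TAGGTCA, the D-box TTANNTAA, which is bound by the clock output factor DBP, and the cyclic AMP response half-site TGACGT. In the sequences, written 5′ to 3′ on the strand of the gene, capitals mark a match, and AACGTG is CACGTT read from the other strand. No matches overlapped each other.
Arntl (chr7:113207261-113207560, + strand, RORE core):
Arntl: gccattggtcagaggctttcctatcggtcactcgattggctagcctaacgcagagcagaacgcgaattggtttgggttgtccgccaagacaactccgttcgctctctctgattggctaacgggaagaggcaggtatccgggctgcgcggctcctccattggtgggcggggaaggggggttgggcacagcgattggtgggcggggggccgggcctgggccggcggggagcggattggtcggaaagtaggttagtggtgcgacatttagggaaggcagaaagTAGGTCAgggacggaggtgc
Per1 (chr11:69098699-69098998, + strand, E-box):
Per1: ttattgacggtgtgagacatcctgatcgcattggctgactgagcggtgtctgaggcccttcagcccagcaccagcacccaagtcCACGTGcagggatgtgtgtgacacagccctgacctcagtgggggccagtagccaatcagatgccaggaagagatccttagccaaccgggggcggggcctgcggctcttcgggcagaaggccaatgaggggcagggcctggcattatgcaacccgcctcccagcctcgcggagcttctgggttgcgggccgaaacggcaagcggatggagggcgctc
Per3 (chr4:151044616-151044915, - strand, D-boxes):
Per3: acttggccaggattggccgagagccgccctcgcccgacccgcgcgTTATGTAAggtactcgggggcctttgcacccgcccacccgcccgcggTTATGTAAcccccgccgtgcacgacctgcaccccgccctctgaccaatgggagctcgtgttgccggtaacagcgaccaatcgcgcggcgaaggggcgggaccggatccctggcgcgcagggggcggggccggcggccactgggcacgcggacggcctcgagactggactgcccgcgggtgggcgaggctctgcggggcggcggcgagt
Cry1 (chr10:85185005-85185304, - strand, E-prime box and E-box):
Cry1: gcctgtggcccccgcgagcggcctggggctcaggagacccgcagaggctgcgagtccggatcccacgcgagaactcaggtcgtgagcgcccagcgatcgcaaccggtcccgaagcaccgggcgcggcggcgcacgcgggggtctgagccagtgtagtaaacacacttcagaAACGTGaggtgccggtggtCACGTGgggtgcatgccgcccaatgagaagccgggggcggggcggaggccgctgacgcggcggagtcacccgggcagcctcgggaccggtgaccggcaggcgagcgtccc

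Positions are bases from the transcription start, negative before it. The RORE core of Arntl lay at 30, and 2.61% of all 32851 promoter windows in the table held these letters on either strand. The E-box of Per1 lay at -166, and another Per1 window, around a different start, held a cyclic AMP half-site at -132. Per3 had 2 D-boxes, at -205 and -158. In Cry1 the E-prime box lay at -79 and the E-box at -60. Cry2 held an E-prime box at -166 and Nr1d1 held one at -28. Of all windows, 7.15% held the E-box, 4.68% the E-prime box, 6% the D-box and 7.51% the half-site. None of these letters was found in the windows of Clock, Npas2 and Nr1d2, and a match or its absence in so short a window says nothing about binding in these hearts.

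Counts summed to between 15300344 and 15770389 reads in the MI 28 d libraries, 18355720 to 19238101 in the MI 7 d libraries and 12351525 to 13629120 in the sham libraries. Levels are CPM, counts scaled to a fixed library total after correction between libraries by the trimmed mean of M-values (TMM). Changes are log2 fold changes from edgeR's quasi-likelihood test, the first-named group over the second, with a standard error, and a gene is said to have risen or fallen where its Benjamini-Hochberg adjusted p over all tested genes was under 0.05. The sham libraries resembled each other far more than the infarcted ones did. The biological coefficient of variation was 24.1% at 28 d, 17% at 7 d and 2.77% in sham hearts. Standard errors and adjusted p-values against sham assume that the sham libraries came from 3 separate mice, which was not tested. The spread was estimated over all libraries together, so the same assumption enters standard errors and adjusted p-values of 28 d against 7 d. In a fit of only the 6 libraries compared, 6 instead of 8 clock genes were called higher at 28 d than at 7 d. In both fits 2 were called lower. Scaling by library size alone would have raised the median change of all genes by 0.25 at 28 d and 0.33 at 7 d against sham (log2), and results it altered are named where they occur.

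At 28 d against sham, the 3 activators Arntl, Npas2 and Clock and the inhibitor Cry1 fell, while Per1, Per2, Per3, Nr1d1 and Nr1d2 rose. Thus 5 of 10 rose, 4 fell, and Cry2 was not called, beside 55.1% of all tested genes called in either direction, of which 29.5% of tested genes were higher and 25.6% lower. With library size alone, the share of higher genes among all called genes was 74% instead of 53.5%. The median size of change was 1.99 over the 10 genes and 0.45 over all tested genes (log2). Per2 and Arntl changed most, 17.04-fold up and 14.9-fold down, which placed them at ranks 199 and 227 of 14347 by size of change.

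At 7 d against sham the same 5 genes had risen and the same 4 had fallen, with smaller changes for all but Clock and Cry1. With 74.4% of all tested genes called at this time, 39% higher and 35.4% lower, a call by itself sets none of these genes apart. The share of higher genes among all called genes was 67.4% with library size alone instead of 52.5%. The median size of change was 1.03 over the 10 genes and 0.80 over all tested genes (log2). The comparisons of 28 d and of 7 d with sham share the sham libraries, so their directions are not independent.

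At 28 d against 7 d, 8 genes were higher and 2, Arntl and Npas2, were lower, beside 55.2% of all tested genes called, 29.1% higher and 26.1% lower. The median size of change was 1.06 over the 10 genes and 0.45 over all tested genes (log2). Libraries of the groups did not overlap for all 10 genes in both comparisons with sham and for 8 genes between 28 d and 7 d. Among all tested genes the groups did not overlap for 66.4% at 28 d against sham, 80.8% at 7 d against sham and 59.8% at 28 d against 7 d.

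**Figure D1:**
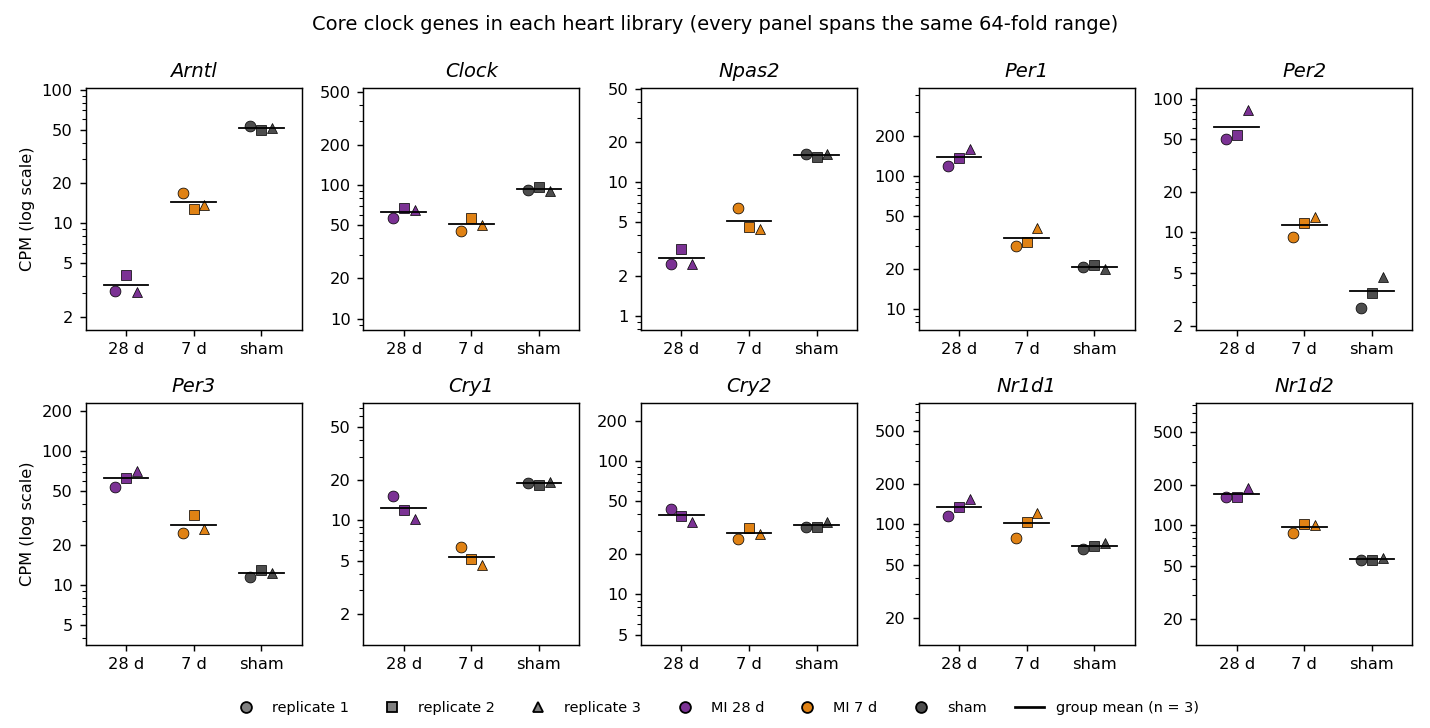
Level of each of the 10 clock genes in CPM (log axis) in the MI 28 d, MI 7 d and sham libraries; each point is 1 library and each line the mean of 3. Arntl stood at 3.07 to 4.09 CPM at 28 d, 12.9 to 16.8 at 7 d and 49.5 to 53.2 in sham hearts, while Per1, Per2, Per3 and Nr1d2 ran in the opposite order.

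Of the activators, Arntl showed the steepest loss. Its level was 3.12, 4.09 and 3.07 CPM in the MI 28 d hearts, 16.8, 12.9 and 13.7 CPM in the MI 7 d hearts, and 53.2, 49.5 and 51.4 CPM in the sham hearts. The 3 groups formed 3 separate steps with no overlap. At 28 d Arntl rested on 47 to 66 counts a library, against 538 to 610 counts in sham libraries, so its low level was still counted well above 0. Arntl fell by 3.90 ± 0.15 at 28 d (log2, SE, n = 3 against 3, edgeR adjusted p = 1.08e-06) and by 1.83 ± 0.13 at 7 d against sham (edgeR adjusted p = 1.26e-06). It was also lower at 28 d than at 7 d, with a log2 fold change of -2.07 ± 0.14 (edgeR adjusted p = 5.31e-06).

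Npas2, the stand-in partner of BMAL1, followed the same order at a lower level. It had 2.46, 3.16 and 2.43 CPM in the MI 28 d hearts, 6.45, 4.60 and 4.43 CPM in the MI 7 d hearts, and 16.3, 15.5 and 16.2 CPM in the sham hearts. Its groups did not overlap in any pair. The log2 fold change was -2.57 ± 0.19 at 28 d against sham, -1.63 ± 0.17 at 7 d against sham and -0.94 ± 0.18 at 28 d against 7 d, and all 3 passed the threshold (edgeR adjusted p = 1.31e-05, 1.74e-05 and 0.00196).

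Clock, the usual partner, changed far less and in another order. It had 56.7, 66.7 and 64.5 CPM in the MI 28 d hearts, 45.3, 56.7 and 50.4 CPM in the MI 7 d hearts, and 92.2, 96.5 and 90.4 CPM in the sham hearts. All 6 infarcted hearts lay below all 3 sham hearts, and the lowest heart at 28 d lay level with the highest at 7 d. Clock fell by 0.57 ± 0.096 at 28 d and by 0.87 ± 0.096 at 7 d against sham (log2, edgeR adjusted p = 0.000943 and 2.13e-05). With library size alone these falls shrank to -0.32 and -0.54 and were still called. Its rise of 0.30 ± 0.096 at 28 d against 7 d (edgeR adjusted p = 0.0227) was not called with library size alone (0.22, adjusted p = 0.133), in a fit of the 6 libraries compared (0.26, 0.108), or without MI 7 d replicate 1 (0.23, 0.0747), MI 7 d replicate 3 (0.30, 0.0593) or MI 28 d replicate 2 (0.26, 0.0784).

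The 3 Period genes, whose proteins inhibit the BMAL1 pair, all rose, and the sizes differed. Per2 had 49.6, 53.3 and 82.6 CPM in the MI 28 d hearts, 9.19, 11.8 and 12.9 CPM in the MI 7 d hearts, and 2.71, 3.49 and 4.65 CPM in the sham hearts. The groups stood clear of each other although the spread inside each was wide, with the highest heart 1.66 times the lowest at 28 d and 1.72 times in sham hearts. Per2 rose by 4.09 ± 0.27 at 28 d and by 1.64 ± 0.26 at 7 d against sham, and was 2.45 ± 0.23 higher at 28 d than at 7 d (log2, edgeR adjusted p = 8.11e-06, 0.000301 and 2.89e-05). In sham libraries it rested on 31 to 55 counts, the thinnest counts of any of the 10 genes in that group.

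Per1, which also responds to cyclic AMP and glucocorticoid signals, had 118, 137 and 158 CPM in the MI 28 d hearts, 29.7, 32.1 and 40.4 CPM in the MI 7 d hearts, and 20.7, 21.5 and 20.2 CPM in the sham hearts. Most of its rise lay between 7 d and 28 d. The log2 fold change was 2.73 ± 0.14 at 28 d against sham, 0.71 ± 0.14 at 7 d against sham and 2.01 ± 0.14 at 28 d against 7 d (edgeR adjusted p = 2.67e-06, 0.00103 and 4.31e-06).

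Per3, the family member that mice can lose with the least effect on their rhythms, had 54.2, 62.8 and 71.0 CPM in the MI 28 d hearts, 24.3, 33.3 and 25.9 CPM in the MI 7 d hearts, and 11.5, 13.0 and 12.3 CPM in the sham hearts. Its steps from sham to 7 d and from 7 d to 28 d were of like size. Per3 rose by 2.35 ± 0.15 at 28 d and by 1.18 ± 0.14 at 7 d against sham, and was 1.17 ± 0.14 higher at 28 d than at 7 d (log2, edgeR adjusted p = 6.8e-06, 4.34e-05 and 9.01e-05).

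The Cryptochromes, the partners of PER in inhibiting the BMAL1 pair, did not follow the Period genes. Cry1 had 15.1, 11.9 and 10.2 CPM in the MI 28 d hearts, 6.30, 5.15 and 4.62 CPM in the MI 7 d hearts, and 19.02, 18.5 and 19.3 CPM in the sham hearts. It was lowest at 7 d, and its 28 d hearts lay between the other groups without touching either. Cry1 fell by 0.61 ± 0.16 at 28 d and by 1.82 ± 0.17 at 7 d against sham, and was 1.21 ± 0.17 higher at 28 d than at 7 d (log2, edgeR adjusted p = 0.0102, 6.27e-06 and 0.000242). With library size alone its fall at 28 d was -0.37 and was still called.

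Cry2 stayed closest to sham of all 10 genes. It had 43.6, 39.0 and 34.9 CPM in the MI 28 d hearts, 26.2, 31.6 and 28.4 CPM in the MI 7 d hearts, and 32.0, 32.0 and 34.9 CPM in the sham hearts. The highest sham heart lay beside the lowest heart at 28 d, and the 7 d hearts lay just under the sham hearts. The log2 fold change was 0.25 ± 0.10 at 28 d and -0.20 ± 0.10 at 7 d against sham, and neither passed (edgeR adjusted p = 0.0695 and 0.111). The value at 28 d passed with library size alone (0.49, adjusted p = 0.00185) and without MI 28 d replicate 3 (0.32, 0.0236), and the value at 7 d changed sign with library size alone (0.14, 0.213). Cry2 was higher at 28 d than at 7 d by 0.45 ± 0.10 (log2, edgeR adjusted p = 0.00498).

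Nr1d2, which encodes REV-ERB beta, rose at both times. It had 164, 164 and 192 CPM in the MI 28 d hearts, 87.6, 103 and 100 CPM in the MI 7 d hearts, and 55.4, 55.2 and 57.5 CPM in the sham hearts. The groups formed 3 separate steps in the order opposite to Arntl. The log2 fold change was 1.63 ± 0.093 at 28 d against sham, 0.79 ± 0.091 at 7 d against sham and 0.84 ± 0.090 at 28 d against 7 d (edgeR adjusted p = 4.21e-06, 2.99e-05 and 5.84e-05).

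Nr1d1, which encodes REV-ERB alpha, the main repressor of Arntl, rose by smaller fitted amounts. It had 117, 136 and 155 CPM in the MI 28 d hearts, 79.1, 105 and 121 CPM in the MI 7 d hearts, and 65.9, 68.9 and 73.1 CPM in the sham hearts. All infarcted hearts lay above all sham hearts, while the 28 d and 7 d hearts overlapped. Nr1d1 rose by 0.97 ± 0.16 at 28 d and by 0.55 ± 0.15 at 7 d against sham (log2, edgeR adjusted p = 0.000715 and 0.00862), and with library size alone the rise at 7 d was 0.89. Its rise of 0.42 ± 0.15 at 28 d against 7 d (edgeR adjusted p = 0.0401) was not called with library size alone (0.34, adjusted p = 0.134), with limma voom (0.43, 0.0532), in a fit of the 6 libraries compared (0.37, 0.126) or without any 1 of the sham libraries (0.41, 0.0662 to 0.0684). It was also not called without MI 7 d replicate 1 (0.27, 0.109), MI 7 d replicate 2 (0.44, 0.0756), MI 28 d replicate 2 (0.42, 0.0774) or MI 28 d replicate 3 (0.32, 0.0991).

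The exons of Nr1d1 overlap those of Thra, a thyroid hormone receptor gene on the opposite strand, over 263 bases or 8.55% of their length on GRCm38. Thra fell by 0.55 at 28 d and by 0.67 at 7 d against sham (log2, edgeR adjusted p = 0.000283 and 2.05e-05), opposite to Nr1d1. Whether counting used strand is not given in the sources used here, so reads of the shared bases cannot be assigned to either gene. Opposite-strand overlaps were shorter for Cry2, at 4.67% of its exon length, and for Arntl, at 0.439%.

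**Figure D2:**
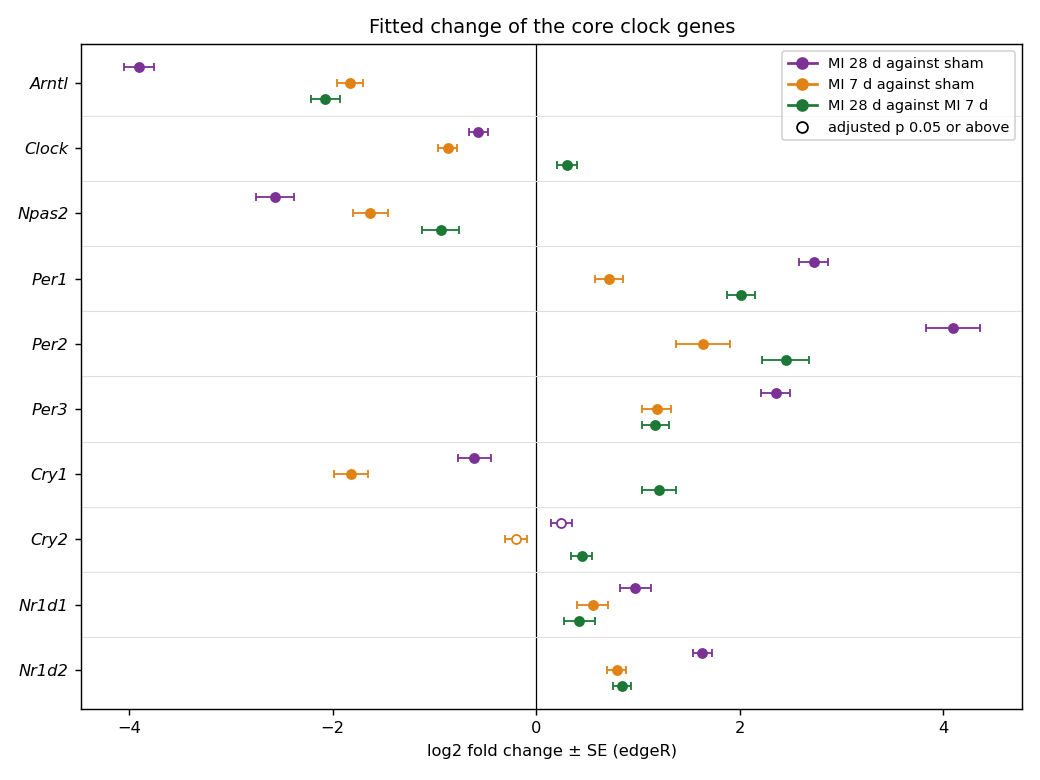
Log2 fold change of each clock gene at 28 d against sham, 7 d against sham and 28 d against 7 d, with bars of 1 standard error on either side of the fitted value and open points where the adjusted p was 0.05 or above (edgeR, 3 libraries a group). Per2 lay at 4.09 and Arntl at -3.90 at 28 d against sham, and Cry2 at 0.25.

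Levels of different genes were compared per length, as CPM per kilobase of exon on GRCm38. The length joined the exons of all annotated transcripts of a gene, whichever of them were expressed. The order of genes depends on that choice, and the SD covers only the spread between libraries. In sham hearts Nr1d1 was the most abundant at 22.5 ± 1.2 CPM per kilobase (SD, n = 3), followed by Nr1d2 at 10.4 ± 0.23. Arntl at 6.83 ± 0.25 and Clock at 6.78 ± 0.23 came next and did not differ beyond their spread. Cry1 at 5.67 ± 0.12 and Cry2 at 5.22 ± 0.26 came after them, then Per1 at 3.69 ± 0.12, Npas2 at 3.34 ± 0.099, Per3 at 1.28 ± 0.076 and Per2 at 0.617 ± 0.17.

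At 28 d this order was rearranged, with Arntl last at 0.456 ± 0.077 CPM per kilobase. Nr1d1 and Nr1d2 were still the most abundant, at 44.2 ± 6.2 and 32.1 ± 2.9. Per1 came next at 24.4 ± 3.6 and then Per2 at 10.6 ± 3.1 CPM per kilobase. Per3 at 6.52 ± 0.88 and Cry2 at 6.20 ± 0.69 did not differ beyond their spread. Clock at 4.56 ± 0.38 and Cry1 at 3.72 ± 0.75 followed, again with overlapping libraries, and Npas2 at 0.560 ± 0.087 overlapped Arntl.

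At 7 d the order was led by Nr1d1 at 33.04 ± 6.9, Nr1d2 at 17.9 ± 1.5 and Per1 at 6.05 ± 1.0 CPM per kilobase. Cry2 at 4.55 ± 0.43, Clock at 3.70 ± 0.41 and Per3 at 2.90 ± 0.50 came next. Per2 at 1.93 ± 0.33, Arntl at 1.92 ± 0.28 and Cry1 at 1.60 ± 0.26 had overlapping libraries, and Npas2 was lowest at 1.08 ± 0.23.

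Ratios of 2 genes in the same library do not depend on how libraries are scaled, and are given here as log2 ratios of counts without a test. The ratio of Arntl to its repressor Nr1d1 was -5.66 to -5.06 in the MI 28 d hearts, -3.15 to -2.23 in the MI 7 d hearts and -0.51 to -0.31 in the sham hearts. The ratio of Npas2 to Clock was -4.73 to -4.40 at 28 d, -3.62 to -2.81 at 7 d and -2.64 to -2.48 in sham hearts. Both ratios thus fell into 3 separate ranges, lowest at 28 d. The ratio of Cry1 to Cry2 was -1.78 to -1.53 at 28 d, -2.62 to -2.05 at 7 d and -0.86 to -0.75 in sham hearts, so it was lowest at 7 d.

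The ratio of Per1 to Per3 was nearly the same in all MI 28 d hearts, at 1.12 to 1.15, although each gene varied 1.34-fold and 1.31-fold among them. It was -0.05 to 0.64 in the MI 7 d hearts and 0.71 to 0.84 in the sham hearts. The ratio of Nr1d1 to Nr1d2 was -0.49 to -0.27 at 28 d, -0.15 to 0.28 at 7 d and 0.25 to 0.35 in sham hearts. Nr1d1 counts therefore exceeded Nr1d2 counts in every sham library and were below them in every 28 d library.

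**Figure D3:**
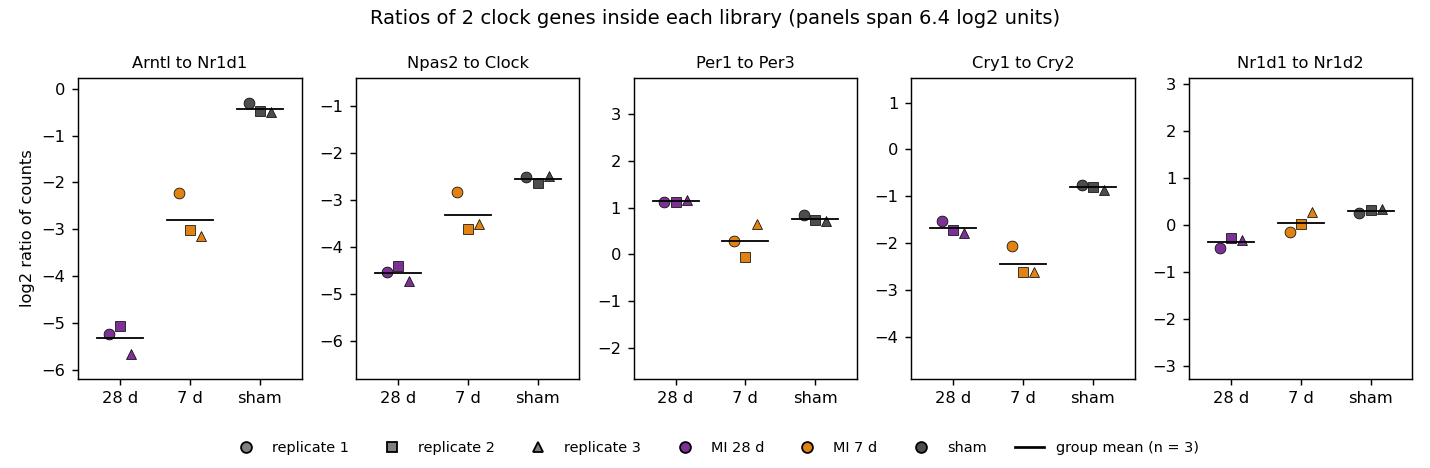
Log2 ratio of the counts of 2 clock genes inside each library, for 5 pairs in the MI 28 d, MI 7 d and sham groups; each point is 1 library. Arntl to Nr1d1 ran from -5.66 to -5.06 at 28 d and from -0.51 to -0.31 in sham hearts.

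Within the infarcted groups, the same heart was often the extreme one in several of the 10 genes. Among the MI 28 d hearts, replicate 3 was highest in Per1, Per2, Per3, Nr1d1 and Nr1d2 and lowest in Arntl, Npas2, Cry1 and Cry2. Among the MI 7 d hearts, replicate 1 was lowest in Per1, Per2, Per3, Nr1d1, Nr1d2, Clock and Cry2 and highest in Arntl, Npas2 and Cry1. With 3 hearts a group this is a description only. In sham hearts the highest library was at most 1.13 times the lowest for every gene but Per2.

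The make-up of the tissue also differed between the groups. The summed level of 6 cardiomyocyte markers (Myh6, Tnni3, Tnnt2, Actn2, Ryr2 and Pln) was 22100 to 40340 CPM at 28 d, 9080 to 12180 CPM at 7 d and 68140 to 71110 CPM in sham hearts. Of these markers 5 of 6 fell at 28 d and 6 of 6 at 7 d against sham, and 6 of 6 were higher at 28 d than at 7 d. In bulk tissue, fewer cells of a type and less RNA per cell cannot be told apart. Fibroblast markers summed to 4904 to 10030 CPM at 28 d, 27460 to 35510 CPM at 7 d and 1809 to 1855 CPM in sham hearts. Macrophage markers summed to 738 to 1195 CPM at 28 d, 3687 to 4605 CPM at 7 d and 426 to 480 CPM in sham hearts. Endothelial markers summed to 533 to 954 CPM at 28 d, 734 to 834 CPM at 7 d and 1944 to 2005 CPM in sham hearts.

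All of these marker sums were farther from sham at 7 d than at 28 d, except the endothelial one, whose ranges at 28 d and 7 d overlapped. Single markers could differ from their sum, as 4 of 6 fibroblast markers were lower at 28 d than at 7 d and 0 higher. The fibroblast marker Dcn had 1407, 1680 and 4025 CPM at 28 d and 1261 to 1614 CPM at 7 d. In sham hearts Dcn had 696 to 720 CPM. Arntl, Npas2, Per1, Per2, Per3, Nr1d1 and Nr1d2 differed from the sums in order, with their 28 d means farther from sham than their 7 d means. Clock and Cry1 were nearer to sham at 28 d than at 7 d, as the cardiomyocyte markers were. Within the infarcted groups the heart with the most cardiomyocyte marker signal had the most Cry1, MI 28 d replicate 1 with 40340 CPM of markers and MI 7 d replicate 1 with 12180 CPM. MI 28 d replicate 1 was also highest in Cry2, and MI 7 d replicate 1 in Arntl and Npas2. Other genes differed from this, as Clock was lowest in replicate 1 at both times and Cry2 was lowest in replicate 1 at 7 d. At 28 d Arntl, Npas2 and Clock were highest in replicate 2. Cry1 was lowest in replicate 3 at both times, while the cardiomyocyte markers were lowest in replicate 3 at 28 d and in replicate 2 at 7 d. The heart with the least such signal at 28 d, replicate 3 with 22100 CPM, was the one highest in the Per and Nr1d genes. At 7 d the heart with the least, replicate 2 with 9080 CPM, was highest in Per3 and Nr1d2, while Per1, Per2 and Nr1d1 were highest in replicate 3. The part of tissue make-up in the changes of the clock genes was not tested.

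**Figure D4:**
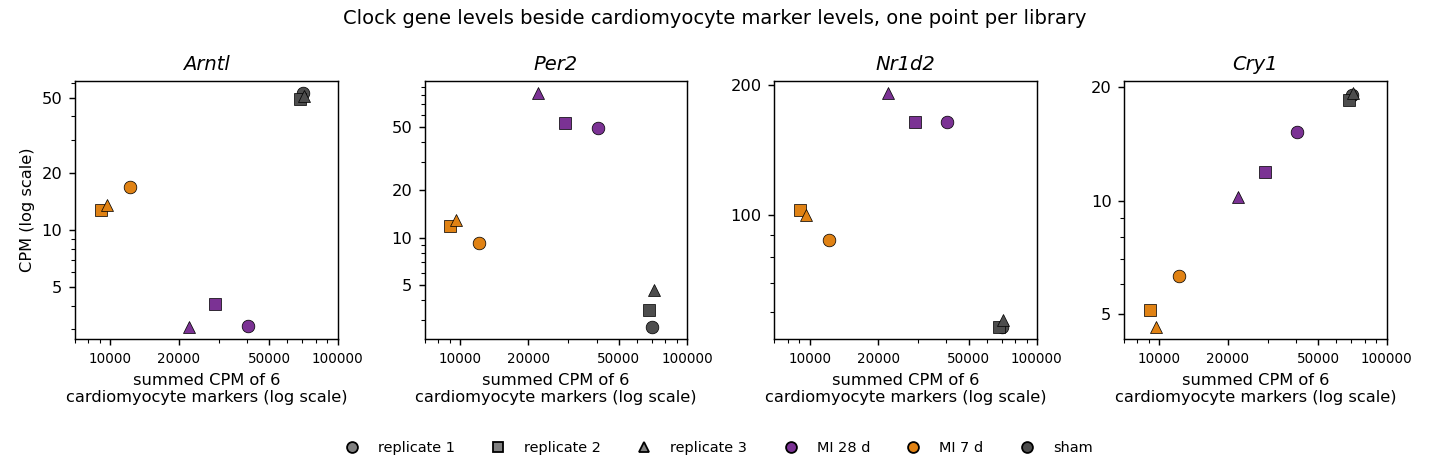
Level of Arntl, Per2, Nr1d2 and Cry1 in CPM against the summed CPM of 6 cardiomyocyte markers (both axes log), 1 point per library. The MI 28 d hearts lie at 22100 to 40340 CPM of markers, between the MI 7 d and sham hearts, while their Arntl is the lowest and their Per2 the highest of the 3 groups; Cry1 runs in the same order as the markers across groups.

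Markers of other tissues were checked too. Adipocyte markers summed to 238 to 852 CPM at 28 d, 144 to 1245 CPM at 7 d and 597 to 617 CPM in sham hearts. In sham hearts nearly all of this sum was Fabp4, at 594 to 614 CPM. Adipoq, Plin1, Cidec, Retn and Lep each had at most 1.75 CPM there. Adipoq stood at 217 CPM in MI 7 d replicate 3, 130 CPM in MI 28 d replicate 1, 122 CPM in MI 28 d replicate 3 and under 4 CPM elsewhere. Leaving out these 3 libraries leaves 1 library at 28 d, which is then assumed to vary like the other groups, so it is a weak check. In that fit the calls of the 10 clock genes were the same in all 3 comparisons. Smooth muscle markers summed to 4442 to 5009 CPM at 28 d, 3630 to 4683 CPM at 7 d and 3077 to 3244 CPM in sham hearts. Most of that was Des, at 3734 to 4189 CPM at 28 d. Des had 2267 to 3175 CPM at 7 d and 2596 to 2708 CPM in sham hearts. Of the 6 smooth muscle markers 3 were lower and 1 higher at 28 d than at 7 d. Acta2 had 320 to 362 CPM at 28 d, 640 to 824 CPM at 7 d and 197 to 229 CPM in sham hearts. Against sham 5 of the 6 rose and 1 fell at 28 d, and 3 rose and 1 fell at 7 d. T cell markers summed to 9.502 to 13.5 CPM at 28 d, 11.7 to 18.6 CPM at 7 d and 2.09 to 2.96 CPM in sham hearts. Skeletal muscle markers reached 9.33 CPM at most, with Myod1 at 0 in all infarcted libraries and Myh1, Myh2 and Myh4 at 0 in all sham libraries.

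Another 28 genes around the loop were taken from a list of its output factors, auxiliary loops, kinases and ligases. At 28 d against sham 11 rose, 8 fell and 9 were not called, so 67.9% were called beside 55.1% of all tested genes. At 7 d against sham 6 rose, 15 fell and 7 were not called, or 75% beside 74.4%. At 28 d against 7 d 17 were higher, 1 was lower and 10 were not called, or 64.3% beside 55.2%. The median log2 fold change of the list was 0.21 at 28 d against sham, -0.26 at 7 d against sham and 0.47 at 28 d against 7 d, and over all tested genes 0.05, 0.06 and 0.03. With library size alone fewer of the 28 genes were lower, 4 at 28 d and 9 at 7 d against sham.

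Among the output factors, Dbp, a direct target of the BMAL1 pair that acts on D-boxes, had the smallest p of all 14347 genes at 28 d against sham. It had 86.1, 81.6 and 96.6 CPM in the MI 28 d hearts, 35.6, 41.1 and 44.0 CPM in the MI 7 d hearts, and 8.11, 7.17 and 8.28 CPM in the sham hearts. These were 3 separate steps in the order of the Period genes. Dbp rose by 3.49 ± 0.12 at 28 d and by 2.35 ± 0.11 at 7 d against sham (log2, edgeR adjusted p = 9.98e-07 and 1.77e-07).

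Ciart, a repressor of the BMAL1 pair, rose late. It had 15.3, 16.8 and 17.9 CPM in the MI 28 d hearts, 2.65, 2.38 and 3.66 CPM in the MI 7 d hearts, and 1.92, 2.94 and 2.03 CPM in the sham hearts, so that only the 28 d hearts stood apart. Its log2 fold change was 2.86 ± 0.22 at 28 d and 0.34 ± 0.22 at 7 d against sham, and the value at 7 d did not pass (edgeR adjusted p = 1.75e-05 and 0.197), though it passed with library size alone (0.67). At 28 d against 7 d it was higher, at 2.52 ± 0.20 (edgeR adjusted p = 1.29e-05).

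Tef, a relative of Dbp, averaged 239 ± 11.7 CPM at 28 d, 113 ± 8.7 CPM at 7 d and 124 ± 10.1 CPM in sham hearts (SD, n = 3 each). Wee1, a cell cycle kinase gene driven by E-boxes, averaged 37.1 ± 6.3 CPM at 28 d, 14.3 ± 0.69 CPM at 7 d and 14.7 ± 1.6 CPM in sham hearts. Both rose at 28 d against sham, by 0.95 and 1.33 (log2), and neither was called at 7 d against sham. Bhlhe40, which competes for E-boxes, rose by 1.49 at 28 d and by 0.91 at 7 d against sham (log2, edgeR adjusted p = 1.25e-05 and 3.03e-05). Its relative Bhlhe41 rose by 0.93 at 28 d and by 0.51 at 7 d (log2, edgeR adjusted p = 9.53e-05 and 0.000892).

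Nfil3 fell at both times. This factor, which represses through D-boxes, averaged 12.2 ± 1.3 CPM at 28 d, 11.4 ± 1.3 CPM at 7 d and 36.2 ± 1.0 CPM in sham hearts, and its log2 fold change was -1.57 at 28 d and -1.67 at 7 d against sham (edgeR adjusted p = 1.39e-05 and 1.06e-06). Rora, which activates through ROREs, had a log2 fold change of 0.55 at 28 d and 0.13 at 7 d, of which the first passed (edgeR adjusted p = 0.00634 and 0.387). The value at 7 d passed with library size alone (0.47, edgeR adjusted p = 0.015) and without MI 7 d replicate 1 (0.28, 0.0224). Without the 3 Adipoq-rich libraries, which leaves 1 library at 28 d, the value of Rora at 28 d was 0.46 and did not pass (edgeR adjusted p = 0.0602). Nono, which binds PER proteins, was the 1 listed gene lower at 28 d than at 7 d, at -0.21 ± 0.067 (log2, edgeR adjusted p = 0.0218). It was not called with limma voom (-0.21, adjusted p = 0.0596), without MI 7 d replicate 1 (-0.18, 0.0528) or without the 3 Adipoq-rich libraries (-0.22, 0.0827).

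Hlf, another factor of the Dbp and Tef family, went in both directions. It had 38.2, 36.7 and 57.4 CPM in the MI 28 d hearts, 4.14, 8.17 and 6.69 CPM in the MI 7 d hearts, and 24.1, 25.7 and 26.0 CPM in the sham hearts. It fell by 2.00 ± 0.25 at 7 d and rose by 0.80 ± 0.23 at 28 d against sham (log2, edgeR adjusted p = 4.6e-05 and 0.0141). The rise at 28 d was not called without sham replicate 1 (0.76, edgeR adjusted p = 0.0546) or without the 3 Adipoq-rich libraries, again with 1 library left at 28 d (0.53, 0.079), and over the alternatives it lay between 0.53 and 1.06.

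**Figure D5:**
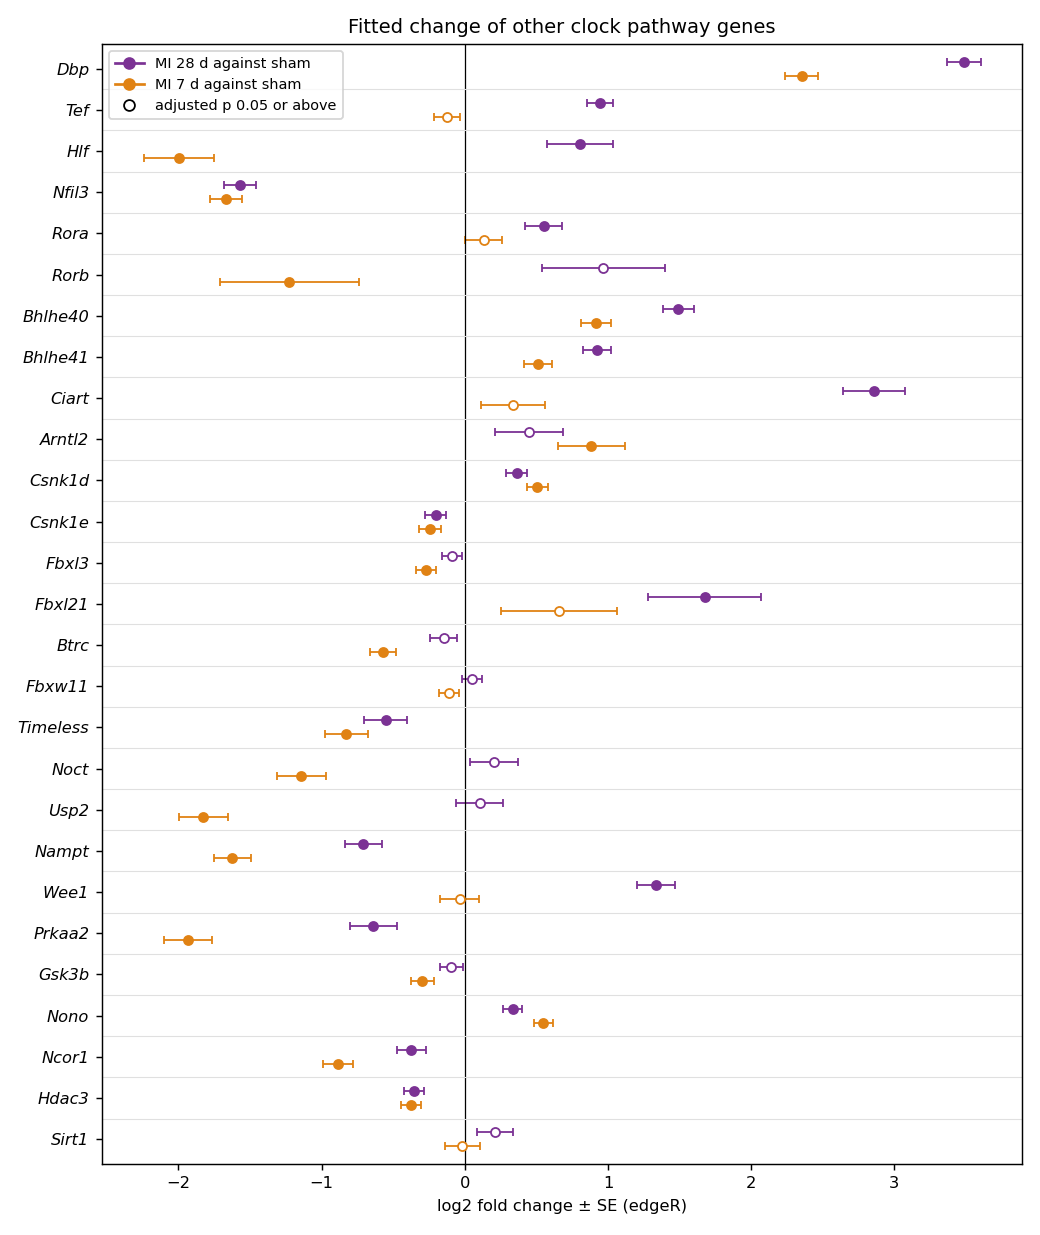
Log2 fold change of further clock genes at 28 d against sham and 7 d against sham, with bars of 1 standard error on either side; open points had an adjusted p of 0.05 or above (edgeR). Dbp lay at 3.49 and Nfil3 at -1.57 at 28 d against sham.

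To ask which genes had the profile most like Arntl, Per2 and Nr1d1, the root mean square difference of centred log2 CPM over the 9 libraries was taken for 13655 genes. Nearest to Arntl was Fam124b at 0.446, against a median of 1.64 over all candidates, followed by Asxl3, Ccnjl and Mmp13, all of which averaged under 5 CPM in every group. Nearest to Per2 was Dusp4, a phosphatase that acts on MAP kinases, at 0.421 against a median of 1.72. It averaged 23.6 CPM at 28 d, 5.37 CPM at 7 d and 2.45 CPM in sham hearts. The next were Adgra1 and Tmem63c, at up to 6.03 CPM. Nearest to Nr1d1 were Jade2 at 0.106, Olfr1033 at 0.127, Gbp2 at 0.128 and the clock gene Bhlhe41 at 0.140, against a median of 0.602.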

How the data were processed

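RNA of 9 mouse hearts, 3 each at 28 d after MI, at 7 d after MI and after a sham operation, was measured as whole-number read counts per gene, deposited by the authors without normalization. Per the submitters' processing notes, Trim Galore, STAR, featureCounts and the mm10 build were used, named without versions. Which annotation was used, how strand was set and how multi-mapping reads were counted were not given in the sources used here. Groups were taken from the sample titles. The members and lists were chosen with earlier results of these data known.

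Genes were filtered with filterByExpr (minimum count 10, minimum total 15) and scaled by TMM in R 4.3.3 with edgeR 4.0.16. All 9 libraries entered 1 model with a mean for each group, and comparisons were tested two-sided by the quasi-likelihood test with Benjamini-Hochberg adjustment at 0.05. The standard error was the absolute log2 fold change divided by the root of F. The procedure was tested on simulated counts, where 63% to 74% of 2-fold changes and 91% to 97% of 4-fold changes were recovered. Each gene was simulated with the same spread in all groups, so the unequal spread of the real groups was not tested. Sham libraries differed beyond counting noise (chi-square 1.67 to 1.8 times its degrees of freedom) and were kept as 3 replicates. The same ratio was 18.8 to 29.3 between MI 7 d libraries and 31.4 to 71.2 between MI 28 d libraries. This check shows only that the sham libraries were not copies of 1 library. It cannot tell libraries of 3 mice from repeated libraries of 1 sample, so independence of the sham replicates was assumed and was not tested. The p-values measure the spread between these libraries.

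Gene coordinates and exon lengths come from GENCODE M21 on GRCm38, and promoters from RefSeq on GRCm38.p6. All 10 clock genes were named in every comparison, of the 28 further genes those past the threshold in any comparison, and for Arntl, Per2 and Nr1d1 the 4 nearest genes (log2 CPM with a prior count of 2, leaving out symbols with Gm or Rik). Of the eligible further genes only examples are printed, and a few of the genes these rules name are not reported here. Alternatives were DESeq2 1.42.0, limma 3.58.1 voom with a spread per group, size factors of the DESeq2 type, scaling by library size alone, a stricter filter (at least 1 CPM in 3 libraries, mean at least 2 CPM), no filter, only the 6 libraries compared, a 2-fold threshold, the replicate number as a block, and each library left out in turn. Dropping the 3 libraries in which Adipoq exceeded 100 CPM was chosen after seeing the data.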

Additional observations from a re-analysis of the deposited data

Results flagged for a closer look

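The change from sham differed between 28 d and 7 d for each of the 10 clock genes, by the direct test of 28 d against 7 d, which is the difference of the 2 changes (log2, edgeR adjusted p under 0.05). The sham libraries cancel in this difference apart from the shared estimate of spread, so it compares the 6 infarcted hearts. The difference was negative for Arntl, at -2.07 ± 0.14, and for Npas2, at -0.94 ± 0.18. It was positive for Per2 at 2.45 ± 0.23, Per1 at 2.01 ± 0.14, Per3 at 1.17 ± 0.14 and Nr1d2 at 0.84 ± 0.090. In these 6 genes the change grew in its own direction. For Cry1 the difference was 1.21 ± 0.17 and for Clock 0.30 ± 0.096, so that the falls of both were smaller at 28 d than at 7 d. Cry2, not called against sham at either time, differed by 0.45 ± 0.10. Nr1d1 differed by 0.42 ± 0.15. The calls of Clock and Nr1d1 rest on overlapping libraries and were lost under several alternatives.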

How the results depend on the processing

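Of 540 values of the 10 clock genes under the alternatives, 522 kept their direction and their side of the threshold, 15 lost their call, 2 gained one and 1 changed sign. The lost calls were those of Clock and Nr1d1 at 28 d against 7 d, the gained ones those of Cry2 at 28 d against sham, and the sign change that of Cry2 at 7 d against sham with library size alone (0.136). The cause was not tested. An added 2-fold threshold left 2 of the clock genes higher and 3 lower at 7 d against sham. It left 4 higher and 2 lower at 28 d against sham, and 4 higher and 1 lower at 28 d against 7 d. Of the 28 further genes it left 5 higher and 2 lower at 28 d against sham, 1 higher and 8 lower at 7 d against sham, and 11 higher and 0 lower at 28 d against 7 d. With library size alone 4 of the 28 were lower at 28 d against sham, 9 at 7 d against sham and 2 at 28 d against 7 d. Nono, lower at 28 d than at 7 d, was not called with limma voom, which left 0 lower genes (1 at an unadjusted p under 0.05, and 1 with DESeq2). Leaving out 1 library gave 0 to 2 lower genes there, 0 without MI 7 d replicate 1 and 2 without MI 28 d replicate 3. Same-numbered libraries of different groups had correlations of -0.0909 to 0.304, and differently numbered ones of -0.582 to 0.454. Of 9 libraries 4 correlated best with their own number. Between the infarcted groups the same-numbered values were -0.0909, 0.262 and 0.304. The sham libraries varied too little to show any pairing, so whether replicate numbers pair the libraries cannot be told. With the replicate block the clock genes again gave 5 higher and 4 lower at each time against sham and 8 higher and 2 lower at 28 d against 7 d, and the 28 further genes gave 14 lower at 7 d and 7 lower at 28 d against sham. Depth limits Per2 in sham hearts and Arntl and Npas2 at 28 d most, and 3 hearts a group, with no recorded hour of collection, limit every comparison.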
